A study of Mus musculus with 778 samples.

Results

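Expressed Zfp zinc finger genes were followed through oocyte growth in single-cell RNA-seq counts from mouse ovaries. The members were selected on their measured level. They are the genes whose whole symbol is Zfp followed by digits and whose level reached at least 10 CPM in any of 5 stages. CPM are UMIs pooled across a stage's oocytes, as parts per 1000000 of the stage total. The rule kept 173 genes of the 23201 in the table, after 2 symbols that it leaves out were dropped. Of the 355 symbols of this form that remained, 182 stayed below the limit, and 11 of these had no UMI in any stage. Members with at least 10 CPM thus made up 48.7% of the symbols, against 37.4% of all genes (8671 of 23201).

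The oocytes came from ovaries of wild-type female ICR mice, an outbred strain, and were picked by hand and sorted by diameter. The 46 non-growing oocytes (NGO) had diameters under 20 μm and came from mice aged 3 to 4 days. The 51 GO1 oocytes (30 to 45 μm), 26 GO2 oocytes (50 to 55 μm), 44 GO3 oocytes (60 to 65 μm) and 56 fully-grown oocytes (FGO, over 70 μm) came from mice aged 3 to 4 weeks, so a difference between NGO and any later stage cannot be told apart from a difference in age. A UMI (unique molecular identifier) is a tag on each captured molecule, so a count stands for a captured mRNA molecule and not for a fragment. Each of the 223 cell names carries a stage but neither the library (4 were made) nor the mouse, and each stage was therefore 1 pooled sample without replicates, between which no test was run.

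Summed UMIs ranged from 24976634 in GO2 to 64311908 in FGO. The 10 deepest cells held 80.4% of the UMIs of GO1 and 73.2% of those of GO2. In NGO, GO3 and FGO they held 42.6% to 49.7%. Sums of GO1 and GO2 thus rest on few oocytes, and means over cells, in which every oocyte's CPM has the same weight, are given beside the results that turn on them. All 10 oocyte markers (Zp1, Zp2, Zp3, Gdf9 and others) had at least 10 CPM in every stage. The 10 granulosa markers summed to 14.6, 39.1, 31.2, 28.9 and 17.3 CPM from NGO to FGO, with Amh, Amhr2 and Foxl2 at most at 0.48 CPM. Cyp19a1 (16.3 CPM) and Nr5a2 (14.5 CPM) were the granulosa markers above 10 CPM in GO1. The 8 stroma and theca markers summed to 8.65 CPM in NGO and 1.05 to 1.59 CPM in the other stages, with Col1a2, Lum and Pdgfra at 0 UMIs in GO1. The 6 blood and immune markers summed to 4.52 CPM in NGO and 1.64 to 1.88 CPM later, and Hbb-b1, Hba-a1 and Cd52 had no UMI in any stage. The part of these other cell types in the results on Zfp genes was not tested.

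Zinc fingers of the C2H2 kind are short folds in which a pair of cysteines and a pair of histidines hold a zinc ion, and a row of such fingers reads DNA base by base. Many mouse proteins of this family also carry a KRAB domain, which recruits the corepressor Trim28 and, through it, the H3K9 methyltransferase Setdb1, and many of them bind and silence transposable elements. Oocytes set the DNA methylation of the maternal genome while they grow, and maternal stores of KRAB zinc finger mRNA pass to the embryo. Some other genes with a Zfp symbol act in splicing, ribosome quality control, the spindle or protein modification.

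The finger itself is shown in the coding bases of 3 members, because the fold is what nearly all of the group share. The first finger that a pattern search found is given, with the codons of its cysteines and histidines in capitals, from GENCODE vM1 coding models. Zfp706 had the highest level of all members, Zfp771 was lower in GO1 than in NGO, and Zfp951 was higher.
Zfp706 (residues 41 to 62 of 76): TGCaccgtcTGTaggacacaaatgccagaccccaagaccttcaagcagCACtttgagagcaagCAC
Zfp771 (residues 65 to 85 of 317): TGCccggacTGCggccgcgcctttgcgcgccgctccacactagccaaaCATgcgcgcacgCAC
Zfp951 (residues 168 to 188 of 441): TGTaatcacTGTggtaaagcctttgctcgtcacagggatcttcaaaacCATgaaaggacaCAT
The Zfp706 model held this finger alone, while the Zfp771 model held 8 and the Zfp951 model 10.

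The sequence before the start site is shown for the 3 largest rises and the 3 largest falls from NGO to GO1 that have a promoter in the RefSeq table (build GRCm38.p6), because the number of CG dinucleotides there differed widely among members. Each run is the 250 bases before the first listed start, in the direction of the gene, with CG dinucleotides in capitals. The members that rose come first.
Zfp423 (chr8:87959596-87959845, minus strand): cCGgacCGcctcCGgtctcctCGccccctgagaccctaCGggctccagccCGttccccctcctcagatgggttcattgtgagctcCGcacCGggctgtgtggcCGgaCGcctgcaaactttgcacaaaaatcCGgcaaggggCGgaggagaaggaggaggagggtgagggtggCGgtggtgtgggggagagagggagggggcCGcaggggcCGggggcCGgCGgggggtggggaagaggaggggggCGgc
Zfp616 (chr11:74060647-74060896, plus strand): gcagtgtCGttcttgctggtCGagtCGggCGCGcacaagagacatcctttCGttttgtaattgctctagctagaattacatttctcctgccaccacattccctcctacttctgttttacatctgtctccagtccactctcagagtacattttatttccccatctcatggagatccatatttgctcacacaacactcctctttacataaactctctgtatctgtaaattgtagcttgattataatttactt
Zfp735 (chr11:73688528-73688777, plus strand): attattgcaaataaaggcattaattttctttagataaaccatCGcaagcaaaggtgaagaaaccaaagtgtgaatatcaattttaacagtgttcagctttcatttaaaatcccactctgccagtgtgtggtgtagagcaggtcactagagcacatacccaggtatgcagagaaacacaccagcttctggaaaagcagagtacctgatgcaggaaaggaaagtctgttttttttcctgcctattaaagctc
Zfp768 (chr7:127345315-127345564, minus strand): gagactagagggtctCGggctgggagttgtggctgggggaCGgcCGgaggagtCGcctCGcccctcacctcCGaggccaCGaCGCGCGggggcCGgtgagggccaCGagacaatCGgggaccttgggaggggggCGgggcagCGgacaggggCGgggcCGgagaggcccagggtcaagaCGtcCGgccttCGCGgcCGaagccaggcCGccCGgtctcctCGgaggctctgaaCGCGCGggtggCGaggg
Zfp771 (chr7:127244276-127244525, plus strand): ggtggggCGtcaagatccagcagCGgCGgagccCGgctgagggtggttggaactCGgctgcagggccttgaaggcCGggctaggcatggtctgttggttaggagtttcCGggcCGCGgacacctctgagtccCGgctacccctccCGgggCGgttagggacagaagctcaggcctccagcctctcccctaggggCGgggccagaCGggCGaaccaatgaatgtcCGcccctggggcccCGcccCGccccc
Zfp637 (chr6:117840931-117841180, plus strand): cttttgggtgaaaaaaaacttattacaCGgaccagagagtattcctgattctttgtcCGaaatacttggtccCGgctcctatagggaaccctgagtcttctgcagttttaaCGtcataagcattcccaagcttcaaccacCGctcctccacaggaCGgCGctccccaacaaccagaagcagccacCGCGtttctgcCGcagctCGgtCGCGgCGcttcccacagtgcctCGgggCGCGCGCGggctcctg
These runs held 18 CG dinucleotides before Zfp423, 6 before Zfp616 and 1 before Zfp735, against 29 before Zfp768, 18 before Zfp771 and 19 before Zfp637. The low values of Zfp616 and Zfp735 were not shared by Zfp423.

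The members were a modest part of the mRNA. Their summed level was 6019, 5594, 4890.1, 5481 and 5686 CPM in the stages from NGO to FGO, the order in which series of 5 values are given throughout, which is 0.489% to 0.602% of all UMIs. The 95% Poisson intervals on these sums, which cover counting error only, ran from 5989 to 6049.6 CPM in NGO and from 4863 to 4918 CPM in GO2. In single oocytes the summed level ran from 5088 to 6876 CPM in NGO (median 5888), from 4399 to 7398 in GO1 (median 5423), from 3566 to 5810.5 in GO2 (median 4780.1), from 4724 to 6112 in GO3 (median 5430.1) and from 4487 to 6454 in FGO (median 5452). The cells of all stages overlapped, with GO2 the lowest by its median. With DESeq2 size factors in place of the stage totals the sums were nearly level, from 5017 to 5071, so the dip at GO2 depends on the scaling.

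A few members carried much of the sum. The 10 highest held 27.1%, 38.2%, 41.7%, 36.9% and 33.5% of the members' summed CPM, and Zfp706 alone held 8.19% to 13.3%. Over all members the median level was 16.6, 14.5, 11.3, 14.1 and 15.9 CPM. At least 50 CPM in any stage was reached by 40 members and at least 100 CPM by 15. At the limit itself, Zfp319 (10.1 CPM in GO1), Zfp248 (10.4 CPM in NGO) and Zfp335 (10.4 CPM in NGO) lay just inside, and Zfp563 (9.76 CPM in NGO), Zfp667 (9.68 CPM in NGO) and Zfp341 (9.64 CPM in GO1) just outside. At least 10 CPM in every stage was found for 82 members. Another 36 reached the limit in 1 stage only, 30 of them in NGO, and had by this rule to be lower elsewhere.

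The 8 highest members did not share a single course. Zfp706, a small protein known from embryonic stem cells, was at 493 CPM in NGO and at 615, 651, 639.6 and 599 CPM later, and was found in all 223 cells. Zfp655 was at 227.4, 329.7, 307, 289 and 245 CPM. Zfp664 was at 169.7, 218, 222, 248 and 228 CPM. Zfp296, known as a factor of pluripotent stem cells, was at 162, 241, 222, 199.8 and 209.5 CPM. These 4 varied by less than 2-fold over the whole of growth.

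Zfp979 and Zfp707 lost most of their level after NGO. Zfp979 was at 233 CPM in NGO and at 33, 22, 31.5 and 61 CPM later, and NGO was 7.07-fold higher than GO1 (95% counting interval 6.58 to 7.59). Zfp707 was at 181, 26.4, 23.5, 78.7 and 79.9 CPM, and NGO was 6.87-fold higher than GO1 (6.35 to 7.45). Zfp932, a KRAB protein that represses endogenous retroviruses, was at 109.8 CPM in NGO, 142.8 in GO1 and 169.8 in FGO, where it was highest. Zfp277 was at 80.6, 153.2, 133.3, 102.6 and 78.1 CPM, highest in GO1. Of the transcript models of Zfp932 and Zfp979, 55.4% and 23.9% of all stretches of 50 bases also occur in transcripts of other genes, so their counts can hold reads of relatives and are uncertain.

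**Figure D1:**
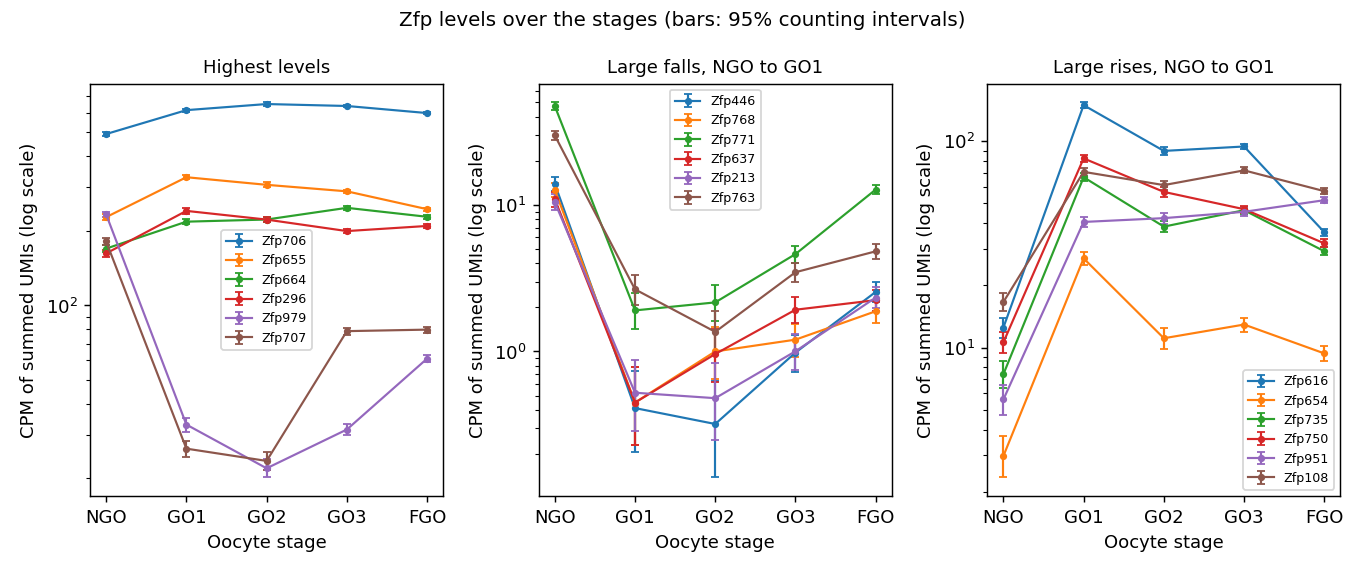
CPM of summed UMIs (log axis) in the 5 stages for members with the highest levels (left), with large falls from NGO to GO1 (middle) and with large rises (right), with 95% counting intervals as bars. Zfp979 and Zfp707 drop from 233 and 181 CPM in NGO to 33 and 26.4 CPM in GO1, beside members such as Zfp706 that stay within 493 to 651 CPM.

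NGO was the most frequent stage of the highest level. The highest CPM was in NGO for 85 members (49.1%), in GO1 for 34 (19.7%), in GO2 for 5 (2.89%), in GO3 for 18 (10.4%) and in FGO for 31 (17.9%). Over all 8671 genes that passed the same limit, the shares were 45.7%, 23.8%, 9.25%, 9.39% and 11.9%. The share in NGO lay near that of all genes, the share in GO2 lay below it and the share in FGO above. The lowest level was in GO2 for 81 members (46.8%), against 31.9% of all genes, and in GO1 for 20 (11.6%), against 14.8%. The count of 5 in GO2 was 17 with DESeq2 size factors and 15 with TMM factors (edgeR), which both raise GO2 relative to the other stages.

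**Figure D2:**
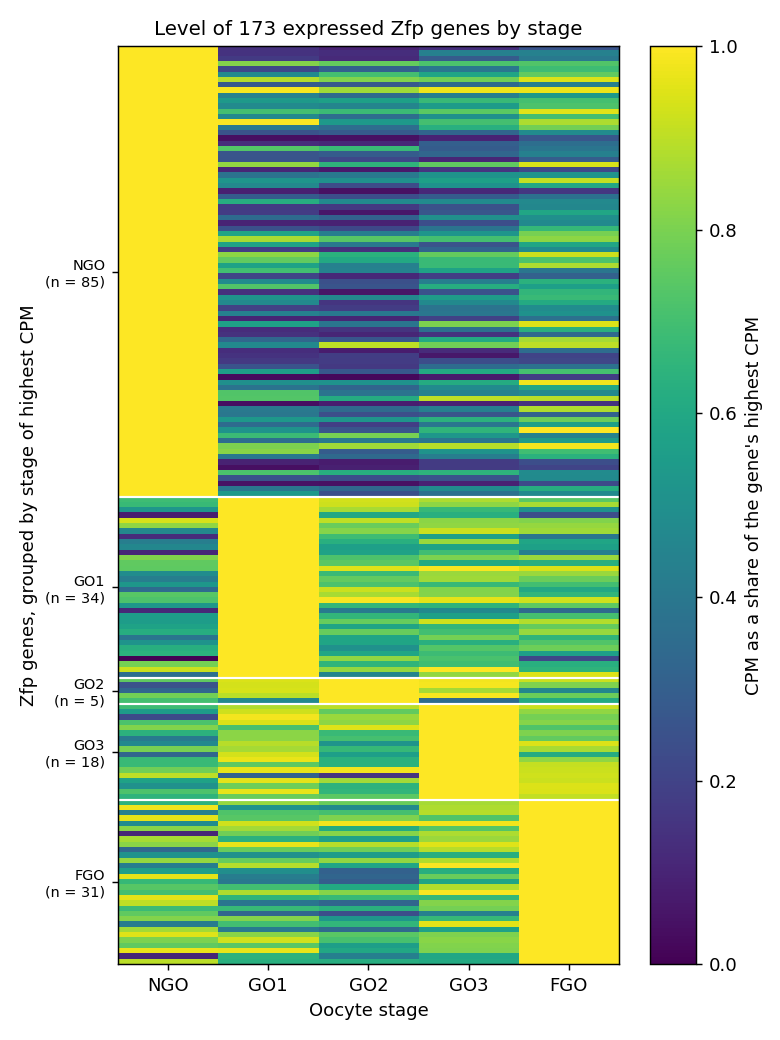
Level of the 173 members (rows, grouped by the stage of their highest CPM and within it by that CPM) in the 5 stages (columns), as a share of the highest CPM of each gene. NGO is the highest stage of 85 members, and many of these rows are dark in GO1 and GO2 and lighter in FGO.

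The onset of growth, from NGO to GO1, was the step with the most differences. A gene counted as changed if its higher CPM was 10 or more and at least 2-fold the lower, a rule of size and not a test. Of 168 members with that level in either stage, 21 rose (12.5%) and 59 fell (35.1%), while among all 8527 genes examined 20.6% rose and 25.7% fell. The median log2 difference of GO1 against NGO was -0.41 over the members and -0.15 over all genes. With means over cells, 27 of 164 members rose (16.5%) and 62 fell (37.8%), against 22.1% and 34.6% of all genes, and the medians were -0.34 and -0.37. Both ways of weighing the cells called 19 members as risen and 51 as fallen. The share of members that rose lay below that of all genes in either setting, while the excess of falls over the background was small with means over cells. TMM factors gave 28 rises and 44 falls (18.1% and 28.4%, against 24.5% and 21.6% of all genes), with median log2 differences of -0.25 over the members and 0.01 over all genes. DESeq2 size factors gave 26 and 43 (17.7% and 29.3%, against 23.1% and 22.8%), with medians of -0.31 and -0.05. In every setting the medians were taken over the genes examined in the sums, while the counts used the genes with the level in that setting.

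The members that fell and those that rose had different sums. The 59 that fell summed to 2136, 544, 496, 762 and 1066 CPM. The 21 that rose summed to 289, 1006, 739, 827 and 645 CPM. In single oocytes the sum of the former ran from 1583 to 2482 CPM in NGO and from 141.6 to 1178 CPM in GO1, so no GO1 oocyte reached the lowest NGO oocyte. The sum of the latter ran from 156.1 to 406 CPM in NGO and from 764 to 2282 CPM in GO1, again without overlap. Both groups were chosen by this same difference, so their NGO and GO1 values describe the choice. The GO2, GO3 and FGO values were not part of it. The fallen group had a median per cell of 435, 736 and 1057 CPM in these stages. The FGO oocytes (795 to 1443 CPM) lay wholly above the GO2 oocytes (121.2 to 689 CPM).

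**Figure D3:**
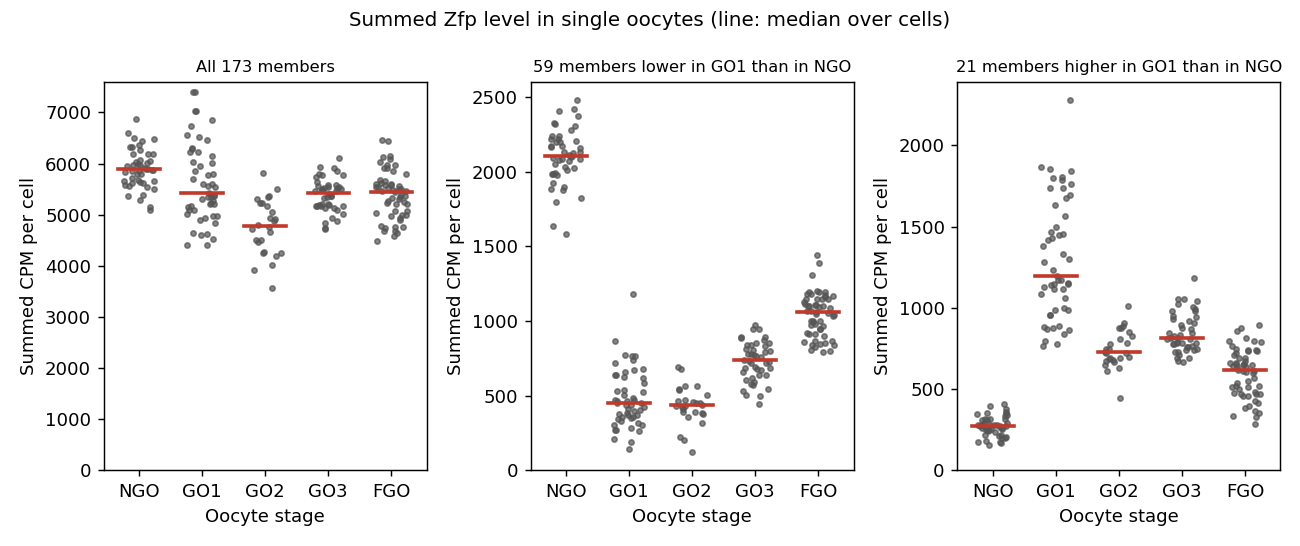
Summed CPM in each oocyte (points, with the median as a line) by stage, for all 173 members (left), the 59 lower in GO1 than in NGO (middle) and the 21 higher in GO1 (right). The NGO and GO1 points of the middle and right panels do not overlap, and the middle panel climbs again to a median of 1057 CPM in FGO.

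The 10 largest falls are given next. Of these genes, Zfp771 and Zfp668 had at least 10 CPM in NGO and FGO, while the other 8 reached that limit in NGO alone, so the rule itself required them to be lower in the later stages. Zfp446 was at 13.9 CPM in NGO and at 0.411, 0.32, 0.984 and 2.55 CPM later, and NGO was 33.9-fold higher than GO1 (18.7 to 68.5). Zfp768 was at 12.7, 0.449, 1.0, 1.2 and 1.88 CPM, a 28.2-fold difference (15.9 to 55.2), but its means over cells in NGO and GO1 were 12.3 and 1.99 CPM, a smaller difference. Zfp771 was at 47.2, 1.91, 2.16, 4.62 and 12.7 CPM, a 24.8-fold difference (18.7 to 33.5). In each of these members the later stages stayed far below NGO, with the highest of them in FGO.

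Zfp637 was at 11, 0.449, 0.961, 1.93 and 2.24 CPM, a 24.4-fold difference (13.8 to 47.8), and its means over cells in NGO and GO1 were 10.9 and 0.122 CPM, a larger one. Zfp213 was at 10.4, 0.523, 0.48, 1.0 and 2.33 CPM, a 19.9-fold difference (11.7 to 37). Zfp763, a KRAB member, was at 29.8, 2.65, 1.36, 3.47 and 4.82 CPM, an 11.2-fold difference (8.78 to 14.5). Its log2 difference was -3.49 in the sums and -5.68 without the 10 deepest cells of each stage. Zfp668, Zfp422, Zfp292 and Zfp444 fell by 9.2-fold to 10.2-fold, from 27.9 to 2.73, from 11.1 to 1.08, from 16.8 to 1.72 and from 33 to 3.59 CPM. Zfp637, Zfp213 and Zfp422 lost their call with TMM or DESeq2 factors, which lower their NGO level below 10 CPM. Zfp768 lost it when each cell was thinned to 20000 UMIs.

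Among the members with at least 50 CPM in NGO, no fall exceeded the 7.07-fold of Zfp979. Beside Zfp979 and Zfp707, Zfp473 went from 143.6 to 24.6 CPM (5.84-fold, 5.37 to 6.35), Zfp428 from 112.1 to 24.2 CPM (4.63-fold, 4.25 to 5.05) and Zfp414 from 99.8 to 48.1 CPM (2.07-fold, 1.94 to 2.22). Zfp428 and Zfp414 were back at 77.5 and 75.8 CPM in FGO, while Zfp473 was at 58.3 CPM. These 3 were picked for their level after the values were seen. At least 50 CPM in the higher stage was held by 9 of the members that fell and by 8 of those that rose.

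The largest rise was that of Zfp423, a regulator of cerebellar and fat cell development. It had no UMI in NGO and was at 12.7, 10.6, 9.05 and 2.71 CPM later. Against the 3 UMIs that a count of 0 allows over the stage (0.119 CPM), GO1 was at least 106.4-fold higher. No NGO oocyte and 35 of 51 GO1 oocytes held a UMI of it. The median over GO1 oocytes was 12.8 CPM, close to the level of the sum.

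Zfp616 rose the most among members with UMIs in NGO. It was at 12.5 CPM in NGO and at 149.9, 89.9, 94.5 and 36.3 CPM later, and GO1 was 12-fold higher than NGO (10.7 to 13.5). With means over cells it was at 11.5 and 299.7 CPM in NGO and GO1. Its median per cell was 6.94 CPM in NGO and 280.1 CPM in GO1. Zfp735 had a like pattern, with 7.42, 67, 38.6, 46.4 and 29.3 CPM and a 9.03-fold difference (7.76 to 10.6), and means over cells of 6.07 and 130.6 CPM in NGO and GO1. Both lie on chromosome 11, Zfp735 at 73502280 to 73527300 and Zfp616 at 73883457 to 73900794 (NCBIM37), and both coding models held the KRAB pattern.

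Zfp654 was at 2.98, 27.1, 11.1, 12.9 and 9.36 CPM, a 9.09-fold rise (7.16 to 11.7). Zfp750, known from epidermal differentiation, was at 10.6, 82.7, 56.9, 46.9 and 32 CPM, a 7.81-fold rise (6.87 to 8.9). Zfp951, a KRAB member, was at 5.6, 40.7, 42.4, 45.5 and 51.9 CPM, a 7.27-fold rise (6.09 to 8.72). Of these, Zfp951 alone kept its level to the end, with its highest value in FGO.

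Zfp108 was at 16.6, 71.2, 61.4, 72.4 and 57.4 CPM, a 4.28-fold rise (3.85 to 4.77), and Zfp873 at 15.8, 57.8, 61.7, 60.9 and 49.8 CPM, a 3.66-fold rise (3.28 to 4.1). Zfp472 went from 9.88 to 28.3 CPM and Zfp957 from 10.3 to 29.3 CPM. Of the transcript of Zfp108, 12.8% of all 50-base stretches occur in other genes, against under 1% for Zfp616, Zfp735, Zfp873, Zfp951 and Zfp957. The other 11 risers had between 10.1 and 85.6 CPM in GO1.

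**Figure D4:**
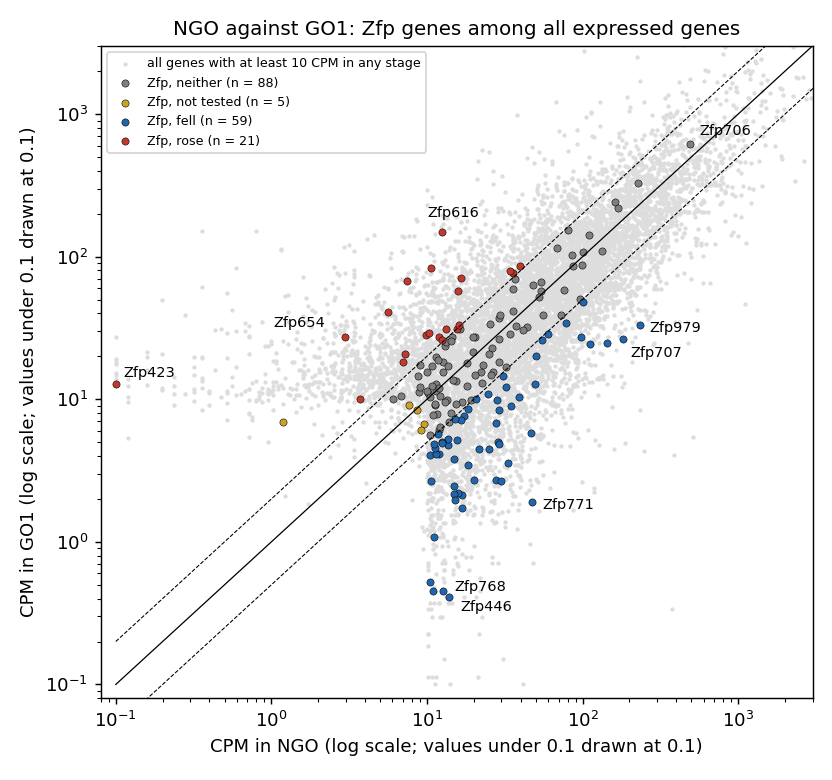
CPM in NGO (horizontal) against CPM in GO1 (vertical), on log axes with the lowest values drawn at the edge, for the members (coloured by their call) over all genes that passed the limit (light grey), with the line of equality and 2-fold lines. Zfp423 sits at the left edge with no UMI in NGO. The call, which also needs 10 CPM in the higher stage, was a fall for 59 members and a rise for 21.

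In the summed UMIs, the later steps changed fewer members. From GO1 to GO2, 1 member rose (0.885% of those with the level in either stage) and 4 fell (3.54%), against 0.109% and 3.03% of all genes. Zfp935 rose from 6.06 to 13 CPM in the sums, but its mean over cells was 25 CPM in GO1 and 12.7 in GO2. Zfp709 (14.7 to 5.24 CPM), Zfp654 (27.1 to 11.1 CPM), Zfp319 (10.1 to 4.56 CPM) and Zfp281 (14.5 to 7.17 CPM) fell in both settings. The median per cell of Zfp281 was nearly the same, 5.65 CPM in GO1 and 5.46 CPM in GO2, while its highest oocytes were at 117.8 and 19.3 CPM. With means over cells 3 members rose and 26 fell (2.59% and 22.4%, against 4.16% and 12.3% of all genes), and with 26 cells drawn from each stage none fell, so the number of changes at this step was not determined by these data.

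From GO2 to GO3, 10 members rose (8.4%) and 2 fell (1.68%), against 3.34% and 1.01% of all genes. Zfp367 rose most, from 2.36 to 15.2 CPM (6.42-fold, 4.92 to 8.51). Zfp707 rose from 23.5 to 78.7 CPM (3.34-fold, 3.07 to 3.65). Zfp622, which matures the large ribosomal subunit, rose from 5.12 to 14.1 CPM (2.75-fold, 2.28 to 3.35). The falls were those of Zfp935, from 13 to 4.52 CPM, and of Zfp316, from 29.7 to 12.8 CPM, and the latter passed in the sums only. The median per cell of Zfp935 was nearly the same, 3.29 CPM in GO2 and 3.17 CPM in GO3. Its highest oocytes were at 135.7 and 17.2 CPM, so the fall rests on few GO2 oocytes. With means over cells 13 members rose and 1 fell, against 5.09% and 1.26% of all genes, or 11.1% and 0.855% of the members.

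From GO3 to FGO, 7 members rose (5.04%) and 1 fell (0.719%), against 2.41% and 3.54% of all genes. Zfp618 rose from 3.73 to 10.3 CPM (2.76-fold, 2.34 to 3.26), Zfp386 from 5.02 to 13.1 CPM (2.61-fold, 2.26 to 3.02) and Zfp820 from 6.58 to 15.1 CPM (2.29-fold, 2.02 to 2.6). Zfp616 fell from 94.5 to 36.3 CPM (2.61-fold, 2.48 to 2.74). With means over cells 9 members rose and 2 fell (6.67% and 1.48%, against 3.62% and 5.57% of all genes). In these last steps the share of members that rose lay above that of all genes in both settings.

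Between the ends of the series, 13 of 168 members were higher in FGO than in NGO (7.74%) and 38 were lower (22.6%), against 11.3% and 16% of all genes. Zfp951 was 9.27-fold higher (7.83 to 11) and Zfp677 8.97-fold higher (6.23 to 13.4, from 1.19 to 10.7 CPM). Zfp768 was 6.73-fold lower (5.44 to 8.37) and Zfp763 6.17-fold lower (5.4 to 7.07). Zfp951 and Zfp677 were below 10 CPM in NGO and became members through later stages, while Zfp768 and Zfp763 did so through NGO alone. The rule itself thus required a difference in these directions. The median log2 difference was -0.09 over the members and -0.12 over all genes. TMM factors gave 20 higher and 24 lower members (12.7% and 15.3%, against 15.2% and 11.5% of all genes). DESeq2 size factors gave 13 and 26 (8.78% and 17.6%, against 12.9% and 13.5%).

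Members with known roles were set side by side by what they do. Of 7 listed genes that act on mRNA or ribosomes, 5 were members, and 2 of these fell from NGO to GO1 while 3 passed neither way. At this step 12.5% of all members rose and 35.1% fell, against 20.6% and 25.7% of all genes. Zfp622 was at 46.6, 5.83, 5.12, 14.1 and 16.8 CPM, with NGO 7.98-fold higher than GO1 (6.75 to 9.5). Zfp326, a splicing and elongation factor, was at 25.2, 4.49, 3.4, 8.13 and 12.2 CPM, with NGO 5.62-fold higher (4.62 to 6.89). Zfp598, the ubiquitin ligase that senses collided ribosomes, was at 52.8, 52.4, 28.3, 37.1 and 46.2 CPM. The RNA-binding Zfp638 was at 53.9, 66.5, 48, 53.5 and 56.5 CPM and Zfp106 at 34.2, 28.6, 22.2, 25.9 and 32.1 CPM. Zfp36, which binds AU-rich elements, reached 3.08 CPM and Zfp346 5.91 CPM, both under the limit.

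The spindle protein Zfp207 was nearly level, at 101.2, 107.9, 97.4, 89.1 and 87.3 CPM. Zfp830, needed in dividing cells of the early embryo, was at 36.7, 69.9, 73.8, 73.7 and 75.2 CPM, a 1.9-fold difference from NGO to GO1 (1.76 to 2.06) that did not pass the size rule. The SUMO ligase Zfp451 was at 87.1, 86, 74.7, 84.8 and 84.4 CPM, with a ratio of GO1 to NGO of 0.987 (0.931 to 1.05). Zfp91, linked to ubiquitin ligases, was at 14.2, 25.6, 16.9, 14.5 and 18 CPM.

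Among 25 listed transcription and chromatin factors, 15 were members, of which 3 rose from NGO to GO1, 6 fell and 6 did neither. Over all members 12.5% rose and 35.1% fell, and over all genes 20.6% and 25.7%. Beside Zfp423, Zfp532 rose from 7.06 to 18.2 CPM (2.57-fold, 2.16 to 3.07) and Zfp592 from 35.5 to 76.5 CPM (2.15-fold, 1.99 to 2.33), but Zfp592 lost its call with means over cells (32.9 and 62.3 CPM). Zfp592 also lost it without the 10 deepest cells, with thinned cells and with 26 cells per stage, and Zfp532 lost its call with 26 cells per stage. Zfp644, a partner of the H3K9 methyltransferases G9a and GLP, was at 97.7, 27.5, 27.2, 33.8 and 42 CPM, with NGO 3.56-fold higher than GO1 (3.27 to 3.87). Zfp263 was at 28.5, 5.01, 1.68, 7.61 and 16.9 CPM, with NGO 5.69-fold higher (4.72 to 6.89). Zfp410, known for activating Chd4, was at 32.4, 12.2, 13.1, 16.6 and 16.8 CPM, with NGO 2.66-fold higher (2.33 to 3.03). Chd4 itself was at 90.8, 146.8, 123.5, 113.2 and 106.6 CPM. Its 1.62-fold difference from NGO to GO1 (1.54 to 1.7) did not pass the size rule. With means over cells, Chd4 differed far less between NGO and GO1 than in the sums.

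Zfp292 fell as given above. Zfp281, a factor of embryonic stem cells, was at 30.7, 14.5, 7.17, 15.6 and 18.4 CPM, and Zfp217, a corepressor subunit, at 18.3, 8.52, 2.8, 8.65 and 11.2 CPM, with NGO 2.12-fold and 2.15-fold higher than GO1. The call of Zfp217 was lost with means over cells, thinned cells and TMM factors, and that of Zfp281 with thinned cells and DESeq2 or TMM factors. Zfp143, which binds many promoters, was at 13.1, 23.7, 18.2, 22 and 21 CPM, and Zfp148 at 47.9, 63.2, 55.6, 67 and 54.9 CPM. Zfp42, the pluripotency marker Rex1, stayed between 7.15 and 11 CPM. The other factors listed were Zfp296, given above, Zfp335, and Zfp609 at 12.1 CPM in NGO and 6.43 CPM in GO1. Zfp131 has no row in the table, and the remaining listed factors stayed below 10 CPM.

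KRAB repressors with a known target were listed apart. Of 7 listed, 3 were members, a share near the 48.7% of all Zfp symbols, and none of these passed the size rule from NGO to GO1. Over all members 12.5% rose at this step and 35.1% fell, and over all genes 20.6% and 25.7%. Zfp568, which represses the placental promoter of Igf2, was at 11.5, 12.8, 11, 17.1 and 15.6 CPM, and Zfp961 at 37.3, 32.6, 43.8, 46.1 and 33.4 CPM. Zfp932 is given above. Zfp809, which silences retroviruses through their primer binding site, reached 6.69 CPM and stayed below the limit, as did Zfp708 (2.13 CPM), Zfp819 (1.51 CPM) and Zfp429 (0.198 CPM).

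The corepressor genes through which KRAB proteins act were present in every stage. Of 17 listed genes, 2 rose from NGO to GO1, 3 fell and 12 did neither, while 20.6% of all genes rose and 25.7% fell. Trim28, the direct partner of the KRAB domain, was at 27.3, 60.8, 37, 41.8 and 38.7 CPM, a 2.23-fold rise (2.03 to 2.44), but its means over cells were 26.6 and 48.2 CPM, under the size rule. Setdb1 was at 18.8, 28.3, 19.5, 23.7 and 26.3 CPM and did not pass. Rbbp7, a histone-binding subunit of deacetylase complexes, was at 1132, 2325, 2970.5, 2449 and 1994 CPM, a 2.05-fold rise (2.03 to 2.08), but its means over cells in NGO and GO1 were 1065 and 1688 CPM, so neither rise passed the size rule with means over cells. Its relative Rbbp4 went the other way, at 165, 53.4, 52.1, 53.7 and 67 CPM. Hdac1, the deacetylase, was at 86.5, 12.2, 14.1, 15.2 and 35.9 CPM, whereas Hdac2 was at 54.9, 49.1, 33.2, 35 and 37.2 CPM. Cbx3 was at 53.2, 11.2, 6.73, 18 and 25.7 CPM, and Cbx1 at 246, 349, 366, 378 and 377 CPM, both being of the heterochromatin protein family that binds H3K9 methylation.

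Features of the proteins were read from coding models, which were found for 169 members. They held a median of 9 predicted C2H2 fingers per protein, with a range of 0 to 27, and 81 had at least 10. Counted instead by the conserved linker that joins many such fingers, the median was 3. The KRAB pattern was found in 81 of 169 (47.9%) and the SCAN pattern, a dimerization domain, in 6. No finger was found in 6 models, 3 of them risers (Zfp616, Zfp750 and Zfp957). The median was 9.5 fingers in 20 risers, 8 in 59 fallers and 10 in 85 members that did neither, with ranges of 0 to 27, 1 to 21 and 0 to 25. KRAB was found in 55.0% of the risers, 42.4% of the fallers and 48.2% of the rest.

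Members with and without the KRAB pattern were counted apart. From NGO to GO1, 11 of 77 members with KRAB rose (14.3%) and 25 fell (32.5%), and 9 of 87 without it rose (10.3%) and 34 fell (39.1%). Over all genes the shares were 20.6% and 25.7%. The median log2 differences were -0.39 and -0.55. Their summed levels were 2271, 1933, 1595, 1925 and 2061 CPM with KRAB and 3558, 3406, 3049.9, 3275 and 3366 CPM without it. Both sums were lowest in GO2 when scaled by the stage totals. The dip of all members at GO2 depended on the scaling, and the sums split by KRAB were not rescaled. Of the 17 members with at least 10% of their 50-base stretches in transcripts of other genes, all but Zfp108 had the KRAB pattern. Counts that can hold reads of relatives thus fall mainly on the members with KRAB.

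The members lay on 20 chromosomes, unevenly spread. Chromosome 7 held 42 of the 169 with a position in NCBIM37 (24.9%), against 7.34% of all genes examined from NGO to GO1 that have a position. Of these 42 members 3 rose and 20 fell from NGO to GO1, while 16.7% of all genes of chromosome 7 rose and 34.5% fell. Chromosome 17 held 21 members (12.4%, against 4.69% of all genes), of which 2 rose and 8 fell, against 15.9% and 32% of its genes. Chromosome 6 held 9, of which none rose and 6 fell, against 23% and 22.2% of its genes. Chromosome 8 held 14 members and chromosome 4 held 12. Runs of at least 3 members less than 300000 bases apart numbered 13 and held 64 members.

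Neighbours in a run did not all have the same call, as the following picks from the 13 runs show. Over all members 35.1% fell from NGO to GO1 and 12.5% rose, and over all genes 25.7% and 20.6%. On chromosome 7, from 134376575 to 134592672, 4 of 5 members fell (Zfp553, Zfp771, Zfp768 and Zfp689) and Zfp688 went from 13.1 to 9.57 CPM. On chromosome 17, from 21520712 to 22593656, 5 of 11 fell and none rose, while Zfp51 in the same run was at 35.7, 59.4, 57.7, 73.1 and 81.8 CPM. On chromosome 4, from 146866526 to 147222475, Zfp979 fell while Zfp933 rose, from 12.5 to 26.2 CPM (NGO to GO1). On chromosome 7, from 24978966 to 25300701, Zfp108 rose and 3 of its 5 neighbours fell. In 17 members at least 10% of the 50-base stretches of the transcript also occur in other genes, and among these are Zfp979, Zfp984 and Zfp985 of the run on chromosome 4, so differences between such relatives are uncertain.

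Promoters were found for 83.2% of the members in the RefSeq table (300 bases each, 250 before and 50 after the start). They held a median of 15 CG dinucleotides, against 21 in the 6901 genes with at least 10 CPM that have a promoter there and 7 in all 27025 genes of the table. The median was 9.5 in 18 risers, 16.5 in 52 fallers and 15 in 70 members that did neither, with ranges of 2 to 42, 1 to 59 and 3 to 49. Over all genes, the median was 19 in those that rose and 21 in those that fell. The whole windows of Zfp735 and Zfp768, whose sequences are given above, held 2 and 35 CG dinucleotides.

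Short motifs were counted on both strands of the same windows. The letters CCGGAAG, the core of ETS factor sites, were in 25% of the members' windows, 20.9% of those of genes with at least 10 CPM and 9.12% of all windows. They were in 27.8% of risers, 19.2% of fallers and 30.0% of the rest. The letters CCGCCC, bound by SP and KLF factors, were in 51.4% of the members' windows, 65.0% of those of expressed genes and 35.9% of all, and in 33.3% of risers and 59.6% of fallers. The E-box CACGTG was in 7.64% of the members' windows, 10.7% of those of genes with at least 10 CPM and 7.24% of all. The NRF1 motif was in 9.72%, 15.7% and 6.43% in the same order. The ETS, SP and E-box letters each contain a CG dinucleotide.

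**Figure D5:**
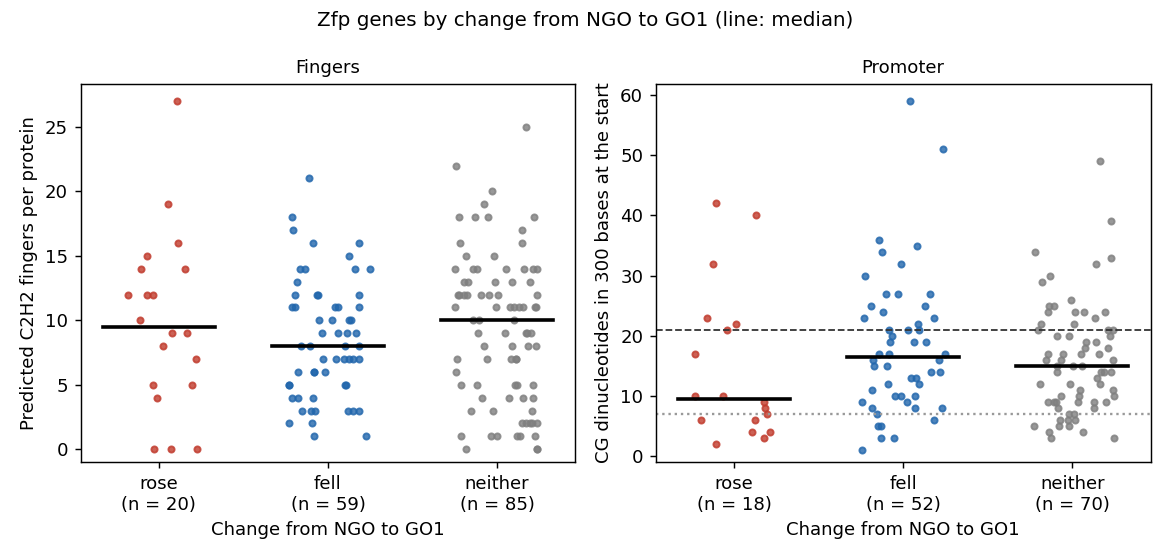
Predicted C2H2 fingers per protein (left) and CG dinucleotides in the 300-base promoter window (right) of each member (points, with the median as a line) by its change from NGO to GO1; the dashed line is the median of genes that passed the limit (21) and the dotted line that of all promoters (7). Finger numbers overlap across the groups, and the risers have the lowest median CG count (9.5).

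Other zinc finger families were counted in the same way, beside all genes, of which 37.4% reached 10 CPM in any stage. Among all genes examined, 20.6% rose from NGO to GO1 and 25.7% fell. Of 35 Zbtb genes 21 were expressed by the same limit, and of these 1 rose from NGO to GO1 and 8 fell. Of 17 Klf genes 6 were expressed, and none of these rose while 2 fell. Of 11 Zkscan genes 5 were expressed, without a rise or a fall. Of 10 Zscan genes 5 were expressed, and of the 4 with that level in NGO or GO1 none rose and 2 fell. Of 32 genes with a Zfp symbol that ends in letters, 9 were expressed, with 3 rises and 1 fall. The summed level of the Zbtb genes was 507, 414, 331, 487 and 512 CPM. It was lowest in GO2 when scaled by the stage totals, and it was not rescaled.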

How the data were processed

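Single mouse oocytes of 5 growth stages were measured by single-cell RNA-seq. The authors sorted reads by cell barcode, aligned them with Tophat (v2.0.12) to the mm9 transcriptome, removed duplicates by UMI, filtered cells and deposited raw UMI counts per gene and cell, without normalization. The strand used for counting is not given in the sources used here. The iscCOOL-seq data were not used here.

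UMIs were summed per stage and divided by the stage total (CPM). Because the cell names give no library, no test between stages was run. A change needed a 2-fold CPM difference and 10 CPM in the higher stage. Ratios carry exact binomial and sums exact Poisson intervals at 95%, for counting error only. Alternatives were DESeq2 (1.42.0) size factors, TMM factors (edgeR 4.0.16), no lower limit, 1.5-fold, 50 CPM, means over cells, sums without the 10 deepest cells, cells thinned to 20000 UMIs and 26 cells per stage. Python 3.11.15 and R 4.3.3 were used.

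Members and gene lists were chosen with earlier results of these data known. Named genes are the 8 highest members, the 10 largest rises and falls from NGO to GO1, the 3 largest of each later step among those that passed in sums and in means over cells, members at the limit and lists of known roles. Every other gene with a value, such as Zfp51, Zfp677, Zfp688, Zfp933, Hdac2, Cbx1 and Chd4, was chosen after its values were seen.

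Positions and proteins are from GENCODE vM1 on NCBIM37 (the build of mm9), for 169 members (11 by a RefSeq synonym). A finger is C, 2 to 4 residues, C, 12 residues, H, 3 to 5 residues, H. KRAB needs 9 of 13 conserved positions. Promoters are from RefSeq, first listed window (26 members have several), and no coordinates were converted between builds.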

Additional observations from a re-analysis of the deposited data

How the results depend on the processing

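No paired analysis was possible because each stage is 1 pooled sample and the count columns carry no replicate that pairs cells across stages. Rises and falls of members are given in this order for each step. Counts are listed only where they differ from the main count by more than 1.5-fold or drop to 0, so unlisted counts also varied. The unlisted falls from NGO to GO1, for example, ran from 43 with DESeq2 size factors to 74 at the 1.5-fold limit. From NGO to GO1 (21 and 59), thinned cells gave 34 rises, the 1.5-fold limit 38 rises, and the limit of 50 CPM 8 and 9. From GO1 to GO2 (1 and 4) the values were 3 and 26 with means over cells, 10 and 22 without the 10 deepest cells, 6 and 38 with thinned cells, 3 and 0 with 26 cells per stage, 2 and 2 with DESeq2 and with TMM factors, 3 and 11 with no lower limit, 2 and 26 at 1.5-fold, and 0 and 0 at 50 CPM. From GO2 to GO3 (10 and 2) they were 1 fall with means over cells and without the 10 deepest cells, 22 and 4 with thinned cells, 29 and 4 with no lower limit, 23 rises at 1.5-fold, and 1 and 0 at 50 CPM. From GO3 to FGO (7 and 1) they were 2 falls with means over cells, 3 falls without the 10 deepest cells, 17 and 8 with thinned cells, 12 and 2 with no lower limit, 23 and 5 at 1.5-fold, and 0 rises at 50 CPM. From NGO to FGO (13 and 38) they were 22 rises with thinned cells, 20 and 24 with TMM factors, 27 rises at 1.5-fold, and 4 and 4 at 50 CPM. Members highest in GO2 (5) numbered 11 without the 10 deepest cells, 15 with thinned cells, 2 with 26 cells per stage, 17 with DESeq2 and 15 with TMM factors. The limit of 20 CPM left 99 members in place of 173.

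Summed CPM of the members in NGO, GO1, GO2, GO3 and FGO was 5901, 5627, 4754, 5387 and 5393 with means over cells, 5853, 5261, 4789, 5411 and 5420.3 without the 10 deepest cells, 5841, 5675, 4788, 5268 and 5346 with thinned cells, 5315, 5518, 5414, 5708 and 5663 with TMM factors, and 5034, 5017, 5017, 5071 and 5033 with DESeq2 factors. With 26 cells per stage it was 6051, 5343, 5445 and 5713 in NGO, GO1, GO3 and FGO. The cause was not tested, beyond the construction of the limits. Of 36 named members called from NGO to GO1, 25 kept the call in all 6 settings of scaling and cells. The others were Zfp768, Zfp637, Zfp213, Zfp422, Zfp319, Zfp367, Zfp248, Zfp217, Zfp281, Zfp532 and Zfp592. Zfp367, lower in GO1 by the sums, had a log2 difference of 0.03 with thinned cells, the only turn in direction among the members called. After seeing the data, 2 more alternatives were tried: 8 in place of 9 KRAB positions found the pattern in 82 in place of 81 models, and means over all promoter windows gave median CG counts of 9.5 in risers and 18 in fallers. Over the settings with a value, the log2 difference of GO1 against NGO ran from -6.05 to -2.62 for Zfp768, from -6.52 to -2.98 for Zfp292, from -6.48 to -4.45 for Zfp637, from -5.68 to -3.33 for Zfp763, from 3.58 to 6.13 for Zfp616 and from 2.35 to 4.33 for Zfp654.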
